A study of Mus musculus with 51 samples.

Results

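Paw skin of mice given the chemotherapy drug paclitaxel (PTX) was compared between 35 and 22 days after the last injection, to see whether the gene expression state of day 22 persists. The members are the 6 paw libraries whose titles name PTX and one of these days, 3 per day, among 51 libraries of the series. Both groups were male C57 mice of 8 to 12 weeks, per the labels, that received 2 intraperitoneal injections of PTX at 2 mg/kg, 1 day apart, so neither group is untreated. The tissue was punched from the hind paw, and the series also holds dorsal root ganglia (DRG) and spinal cord. The remaining paw groups, used for the shared estimate of spread and as reference levels, were PTX at days 2 and 7 and vehicle at day 2, with 3 libraries each. The day of the vehicle group follows the library titles; the series description places its controls at days 1 and 7 instead. Neither source names a paw vehicle of day 22 or 35, and age, collection day and time after PTX cannot be told apart. No label says that the libraries are separate animals, so p-values measure the spread between these libraries, which may be technical.

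Paclitaxel binds beta-tubulin and stabilises microtubules, which blocks dividing cells in mitosis, and it commonly causes a painful neuropathy of hands and feet. Paw skin is a layered tissue. Basal keratinocytes divide and move outwards, first making suprabasal keratins and then the proteins and lipids of the cornified layer. Beneath them the dermis holds fibroblasts, which secrete collagen, and also vessels, mast cells, macrophages, fat, glands and nerve endings.

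The markers of the tissue matched the label. Krt14, the keratin of basal keratinocytes, lay between 1600 and 3210 CPM (the TMM-scaled share of a library's gene counts) over the 15 paw libraries and between 0.463 and 10.5 CPM over the 15 DRG libraries. The sensory neuron channel Scn10a lay between 0.505 and 12.2 CPM in paw and between 645 and 1360 CPM in DRG. Gene counts summed to 20366611, 20790005 and 21056591 reads at day 22 and to 18576843, 18960959 and 20512749 reads at day 35. Day 35 replicate 2 stood apart in skeletal muscle RNA: the mean log2 CPM of 22 muscle genes was 5.98 there, against 9.89 and 10.69 in the other day 35 libraries and 9.36 to 10 at day 22. The count tables of day 35, in paw and in DRG, named their summary lines in another style than those of day 22 and vehicle, and a difference of day cannot be told apart from one of processing.

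No gene passed the test between day 35 and day 22. Of 15199 genes tested with edgeR's quasi-likelihood test, 0 (0%) had a Benjamini-Hochberg (BH) adjusted p under 0.05, and the smallest adjusted p was 0.101. At an unadjusted p under 0.05, 1812 genes (11.9%) were lower and 1265 (8.32%) were higher at day 35, 3077 in all against 760 that chance alone would give. That count was 1434 without day 22 replicate 2 and 1813 without day 35 replicate 2, so the counts of list members given below depend on these libraries too. The 3 libraries of day 35 all lay below the 3 of day 22 for 1761 genes (11.6%) and all above them for 1100 genes (7.24%). With RLE scaling in place of TMM, 51.7% of the genes at an unadjusted p under 0.05 were higher, against 41.1% with TMM, so the balance of directions depended on the scaling. DESeq2 called 614 genes higher (4.46%) and 611 lower (4.43%) at the same threshold, 1225 of the 13780 genes to which it gave an adjusted p. Leaving out day 22 replicate 3 gave 1086 calls with edgeR, 443 higher (2.89%) and 643 lower (4.19%), while leaving out day 22 replicate 2 gave 1, the predicted gene Gm6251, and leaving out any one of the other 4 libraries gave 0. In what follows, "lower" and "higher" give the side of the fold change, and an unadjusted p under 0.05 is a description and not a call. Counts of list members at that p stand against 11.9% lower and 8.32% higher over all genes. Counts without overlap stand against 11.6% and 7.24%. Calls of list members between the days are given below for DESeq2 and for edgeR without day 22 replicate 3 only. Every other setting gave 0 to 2 calls over all genes.

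**Figure D1:**
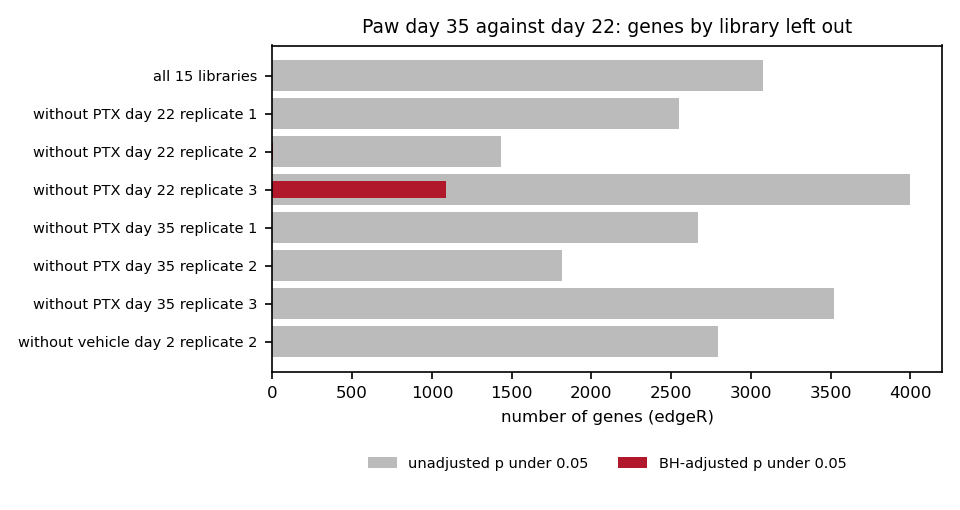
Number of genes between PTX day 35 and PTX day 22 in paw (x axis) with all 15 libraries and with 1 library left out (y axis), edgeR. Grey bars count genes at an unadjusted p under 0.05 and red bars genes at a BH-adjusted p under 0.05, which reach 1086 without day 22 replicate 3 and are at 0 or 1 in the other settings drawn.

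The plot of genes by library left out shows how far the count rests on day 22 replicate 3. That library differed from its group in several cell types. Its fibroblast list had a mean log2 CPM of 6.45, against 7.16 and 7.44 in the other day 22 libraries. Its hair follicle list stood at 1.39 against 5.03 and 4.99. Its B and plasma cell list, of which only 2 genes were tested, stood at 3.32 against 0.02 and -0.85. The neutrophil list read -0.2, 2.41 and 4.41 log2 CPM over the day 22 libraries, highest in the same library, and the 10 neutrophil genes tested held no gene at an unadjusted p under 0.05. Day 35 replicate 3 was likewise the highest of its group in the neutrophil list (3.58 against 0.31 and 1.3). The same held for its B and plasma cell list (2.29 against -0.4 and 0.37). The part of these differences in the results was not tested.

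For each direction, genes were picked by p only among those that were not lowly expressed and whose groups did not overlap. Of these, the 10 with the smallest p on the lower side were Vav2, Lfng, Hcn4, Lamb1, Rgs14, Adarb1, Gsta3, Itgb3, Sema5a and Ifi27l2a. Lfng, a glycosyltransferase that modifies Notch receptors, stood at 30.1, 27.2 and 21.2 CPM at day 22 and at 14.3, 13.1 and 15.3 CPM at day 35, a log2 fold change of -0.87 ± 0.14 (SE; edgeR adjusted p 0.101). Hcn4, a pacemaker cation channel, stood at 9.65, 12.4 and 8.02 CPM at day 22 and at 3.27, 2.55 and 4.25 CPM at day 35, a difference of -1.57 ± 0.26 (edgeR adjusted p 0.104). The groups did not overlap for either gene, as the choice required. The 3 vehicle libraries (15.4 to 18.1 CPM for Lfng, 3.35 to 5.52 CPM for Hcn4) lay nearer to day 35 than to day 22. For these 2 genes the difference between paw and DRG came closest to the threshold, at an edgeR adjusted p of 0.0666 each. Lamb1, a laminin chain of basement membranes, differed by -0.72 ± 0.12, and Itgb3, the integrin beta 3 chain, by -0.75 ± 0.14 (edgeR adjusted p 0.104 each).

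On the other side, by the same choice, stood Fbp2, Neu2, Sik1, Maff, Ccbl1, Dusp1, Csnk2b, Ptgs2 and Sprr1b. Neu2, a cytosolic sialidase, read 10.6, 7.95 and 14.4 CPM at day 22 and 25.1, 25.5 and 21.9 CPM at day 35, a log2 fold change of 1.14 ± 0.20 (edgeR adjusted p 0.104). Csnk2b, the regulatory subunit of casein kinase 2, read 128, 95.5 and 136 CPM at day 22 and 184, 218 and 165 CPM at day 35, a difference of 0.66 ± 0.13 (edgeR adjusted p 0.104). All day 35 libraries lay above all day 22 libraries for both, as the choice required. The vehicle values lay between the groups, at 18.3 to 19.6 CPM for Neu2 and 144 to 161 CPM for Csnk2b.

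Genes of the dermal matrix were lower at day 35. Of 20 collagens tested, 14 (70%) were lower at an unadjusted p under 0.05 and 0 were higher, against 11.9% and 8.32% of all genes. In 11 (55%) the groups did not overlap, against 11.6% of all genes lower without overlap. The median log2 fold change was -0.66, against -0.04 over all genes. Without day 22 replicate 2 the count at an unadjusted p under 0.05 was 8 (median -0.49), and without day 35 replicate 2 it was 9. Col4a1, a chain of the basement membrane collagen, stood at 341, 621 and 310 CPM at day 22 and at 225, 139 and 213 CPM at day 35, a log2 fold change of -1.14 ± 0.27 (edgeR adjusted p 0.112). Its partner chain Col4a2 differed by -0.93 ± 0.23. Day 35 replicate 2 was lowest and day 22 replicate 2 highest in both. Col1a1, the main chain of fibrillar collagen, read 3080, 3190 and 3150 CPM at day 22 and 1570, 1370 and 2510 CPM at day 35, -0.79 ± 0.32 (edgeR adjusted p 0.195). The 3 vehicle libraries stood at 712, 841 and 856 CPM, so Col1a1 at day 35 lay between the vehicle and the day 22 values without overlap with either. At day 22 against vehicle the same gene passed the test (log2 fold change 1.97, edgeR adjusted p 0.0294), while at day 35 the difference from vehicle was 1.18 ± 0.32 and did not. Col1a1 was named because an earlier analysis of these data called it at day 22 against vehicle. Neither that call nor the lower value at day 35 is independent of this choice. With vehicle replicate 1, vehicle replicate 2 or day 22 replicate 2 left out, 0 genes passed at day 22 against vehicle, which holds for each such call given below.

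The enzymes that fold, trim and crosslink collagen followed the same side. Among 21 such genes, 15 were lower at an unadjusted p under 0.05 and 0 higher, with a median of -0.66. In 14 (66.7%) the libraries did not overlap, against 11.6% of all genes lower without overlap. Adamts2, which removes the amino-terminal propeptide of fibrillar procollagen, stood at 107, 139 and 87.4 CPM at day 22, at 55.9, 47.3 and 61.4 CPM at day 35 and at 32.3 to 45.3 CPM in vehicle. Its difference of -1.02 ± 0.22 had an edgeR adjusted p of 0.104, which ranged from 0.00157 to 0.434 over 14 alternative settings. Serpinh1, the collagen chaperone HSP47, differed by -0.68 ± 0.17, and Pcolce, an enhancer of procollagen C-proteinase, by -0.81 ± 0.22. Adamts2, Serpinh1 and Pcolce had each passed the test at day 22 against vehicle. DESeq2 called 8 of the 20 collagens and 10 of these 21 genes lower, and edgeR without day 22 replicate 3 called 9 of each. Over all genes these settings called 4.43% and 4.19% lower. Day 22 replicate 3 was the day 22 library nearest to day 35 in the collagen list (mean log2 CPM 7.69 against 7.96 and 8.27). The fit without it is therefore no separate support.

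Other matrix genes were lower in part. Of 27 glycoproteins and proteoglycans, 13 were lower at an unadjusted p under 0.05, and the median was -0.65. Only 3 (11.1%) had groups without overlap, near the 11.6% of all genes. The counts that follow are again those at an unadjusted p under 0.05. Without day 22 replicate 2 the count was 3 and the median -0.34, and without day 35 replicate 2 they were 6 and -0.43. Eln, elastin, read 407, 396 and 223 CPM at day 22 and 237, 195 and 157 CPM at day 35, so that day 22 replicate 3 lay within the day 35 range. Among 20 matrix proteases and inhibitors 9 were lower (3 without day 22 replicate 2, 5 without day 35 replicate 2). Of those tested 6 (30%) did not overlap, against 11.6% of all genes. Timp4, an inhibitor of metalloproteinases, stood at 12.8, 13.3 and 16.2 CPM at day 22 and at 5.76, 2.89 and 7.54 CPM at day 35, -1.38 ± 0.36 (edgeR adjusted p 0.114). Fibroblast markers gave 7 of 17 lower, with a median of -0.48, and 3 of 17 without day 22 replicate 1, without day 22 replicate 2 or without day 35 replicate 2, 4 without day 35 replicate 3 or vehicle replicate 2, with a median of -0.24 without day 22 replicate 2. Pdgfra and Pdgfrb, the platelet-derived growth factor receptors of mesenchymal cells, differed by -0.73 ± 0.22 and -0.68 ± 0.17. In bulk tissue, fewer cells of a type and less RNA per cell cannot be told apart.

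Endothelial markers were lower throughout the list. All 14 genes tested were lower at day 35 at an unadjusted p under 0.05, with fold changes from -0.88 to -0.48 and a median of -0.64. For 10 (71.4%) the libraries did not overlap, against 11.6% of all genes lower without overlap. Ptprb, the vascular endothelial phosphatase VE-PTP, stood at 204, 281 and 189 CPM at day 22, at 132, 95.6 and 138 CPM at day 35 and at 119 to 159 CPM in vehicle, a log2 fold change of -0.88 ± 0.19 (edgeR adjusted p 0.104). Pecam1, the adhesion molecule CD31 of endothelial junctions, read 255, 352 and 207 CPM at day 22 and 157, 144 and 171 CPM at day 35, -0.78 ± 0.20. The day 35 libraries thus lay below every day 22 library and overlapped vehicle (156 to 185 CPM for Pecam1). Cldn5, the tight junction claudin of endothelium, differed by -0.81 ± 0.20, but its day 22 replicate 3 (35.6 CPM) stood only just above the highest day 35 library (35.2 CPM). Of 14 lymphatic, pericyte and smooth muscle markers 8 were lower (3 without day 22 replicate 2 or without day 35 replicate 2, 4 without day 22 replicate 1, 5 without day 35 replicate 3), led by Flt4, the receptor VEGFR3 of lymphatic vessels, with -0.74 ± 0.16. DESeq2 called 8 of the 14 endothelial genes lower, and edgeR without day 22 replicate 3 called 10, against 4.43% and 4.19% of all genes. The library left out was again the day 22 one nearest to day 35 (list mean log2 CPM 6.28 against 6.67 and 6.93). Without day 22 replicate 2, 8 of the 14 had an unadjusted p under 0.05 and the median was -0.47.

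**Figure D2:**
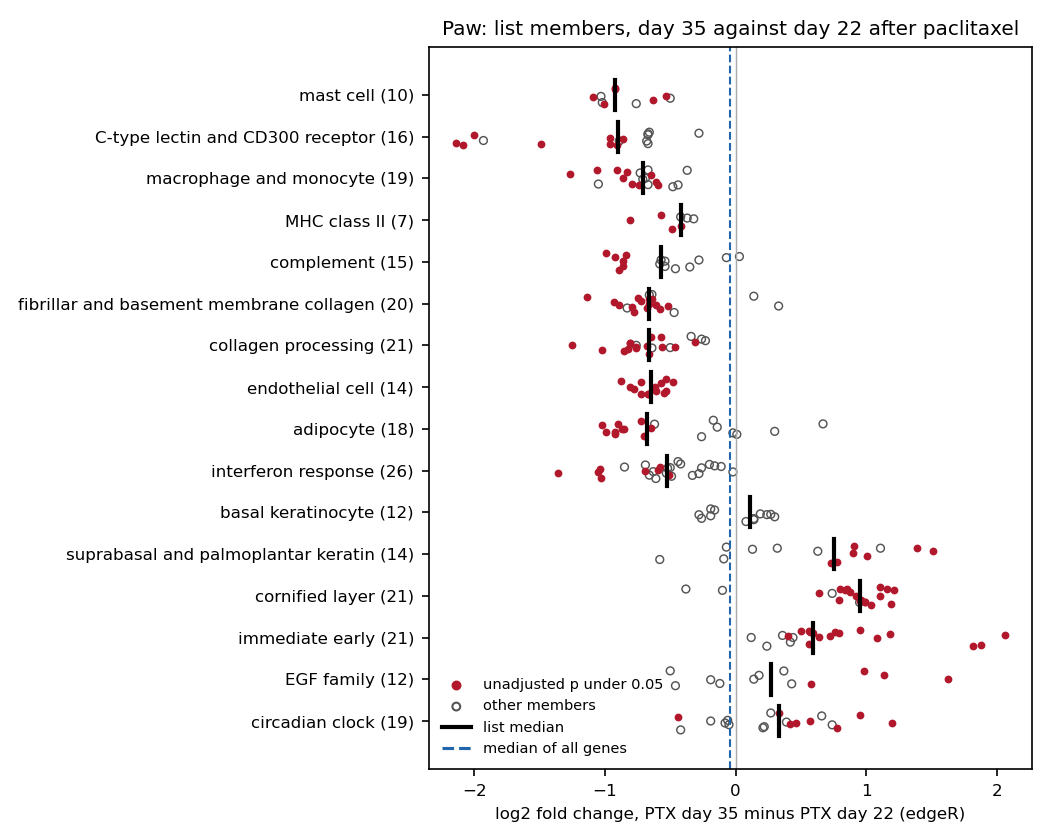
Log2 fold change of PTX day 35 minus PTX day 22 (x axis, edgeR) for the members of 16 lists (y axis, number of genes tested in brackets). Each point is a gene, red at an unadjusted p under 0.05; black bars mark list medians and the dashed line the median of all genes. The 14 endothelial genes all lie left of 0, and 19 of 21 cornified layer genes lie right of 0.

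Beside these results stand the values of day 35 replicate 2, the library low in muscle RNA. It was also the lowest of the 6 in the collagen list (mean log2 CPM 7.11, against 7.47 and 7.48 in the other day 35 libraries) and the highest in the cornified layer list (9.06 against 8.46 and 8.2). Its Acta1, skeletal muscle actin, stood at 262 CPM, against 4070 and 5280 CPM in its group and 2770 to 4180 CPM at day 22. Without it the Col4a1 difference was -0.94, that of Ptprb -0.72 and that of Krt1 1.34, each on the side given for all libraries. The plot of list members shows matrix, vessel and immune lists on the side of day 22. The suprabasal keratin and cornified layer lists stand on the side of day 35, while basal keratinocyte genes lie on both sides. The part of this library's composition in the remaining difference was not tested.

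Mast cells, tissue-resident cells that store histamine and proteases in granules, had lower marker levels at day 35. Of 10 markers 6 were lower at an unadjusted p under 0.05 and 0 higher, with a median of -0.92. Cma1, mast cell chymase, stood at 34.9, 43.8 and 20.7 CPM at day 22, at 12.4, 17.7 and 16.5 CPM at day 35 and at 7.51, 7.85 and 13.6 CPM in vehicle, a log2 fold change of -1.09 ± 0.28 (edgeR adjusted p 0.114). The day 22 and day 35 libraries did not overlap, and 2 of the 3 day 35 libraries lay above the highest vehicle library. Other markers differed in this. Kit read 67.2, 66.3 and 92.6 CPM at day 22 and 60.2, 45.1 and 50.7 CPM at day 35, below vehicle (61.4 to 65.7 CPM). Gata2 read 19.4, 17.6 and 11.1 CPM at day 22 and 8.86, 9.4 and 12.8 CPM at day 35, with overlap, and 9.62 to 11.9 CPM in vehicle. Cpa3, the granule carboxypeptidase, read 38.6, 54.1 and 28.7 CPM at day 22 and 13.4, 23.4 and 23.3 CPM at day 35, -1.01 ± 0.40, with vehicle at 5.41 to 17.5 CPM. It was named for a call at day 22 against vehicle in an earlier analysis of these data, so its values are not independent of that choice. At day 22 against vehicle 5 of the 10 markers had passed the test as higher, against 1.05% of all genes. At day 35 against vehicle 0 did, where the median was still 0.67. The contrast between the days, which tests whether these differ, passed for 0 of the 10.

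Macrophage genes were lower in part. Of 19 markers 4 (21.1%) had no overlap, against 11.6% of all genes, 10 were lower at an unadjusted p under 0.05, and the median was -0.71. Without day 22 replicate 2 the count was 1 of 19 and the median -0.26, without day 35 replicate 2 the count was 3, and without day 35 replicate 3 it was 5. Lyve1, a hyaluronan receptor of lymphatic vessels and resident macrophages, stood at 117, 249 and 95.9 CPM at day 22 and at 83.4, 60.3 and 78 CPM at day 35, -1.06 ± 0.33 (edgeR adjusted p 0.134). Without day 22 replicate 2, the highest library, the difference was -0.52. Mertk, the receptor with which macrophages take up dying cells, read 17.5, 21.5 and 18 CPM at day 22 and 13.7, 9.69 and 13 CPM at day 35, -0.65 ± 0.17. Among 16 C-type lectin and CD300 receptors, which myeloid cells use to sense microbial and altered self ligands, 8 were lower and the median was -0.90, against 2 and -0.45 without day 22 replicate 2 and 4 lower without day 35 replicate 3. Npl, N-acetylneuraminate pyruvate lyase, which is on the same list although it is a sialic acid enzyme and no receptor, stood at 4.87, 17.8 and 18.4 CPM at day 22 and at 4.32, 2.44 and 2.58 CPM at day 35. That difference was -2.14 ± 0.45 (edgeR adjusted p 0.104), with day 22 replicate 1 close to day 35 replicate 1 and vehicle at 1.39 to 2.36 CPM.

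Complement and antigen presentation genes were on the same side. C2, a component of the classical pathway convertase, read 58.8, 64.1 and 54.9 CPM at day 22, 31, 30.9 and 36.3 CPM at day 35 and 22.4 to 26.7 CPM in vehicle, a log2 fold change of -0.86 ± 0.17 (edgeR adjusted p 0.104). Cfd, the protease factor D or adipsin that fat cells secrete, read 394, 315 and 367 CPM at day 22 and 162, 162 and 246 CPM at day 35, -0.92 ± 0.20. The libraries of the groups were apart in both genes. Of 15 complement genes 6 were lower at an unadjusted p under 0.05, and without day 22 replicate 2 the count was 3 and the median came from -0.57 to -0.25. All 7 genes of MHC class II, which presents peptides to helper T cells, had day 35 libraries below all day 22 libraries, and 4 of them had an unadjusted p under 0.05, 2 without day 22 replicate 1 and 1 without day 35 replicate 1. Ciita, its master transcription activator, stood at 4.82, 5.45 and 7.83 CPM at day 22 and at 3.49, 2.95 and 3.9 CPM at day 35, and Cd74, the invariant chain, at 312, 312 and 291 CPM and at 168, 205 and 241 CPM. The T and NK cell median of -0.63 turned to 0.20 without day 22 replicate 3.

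**Figure D3:**
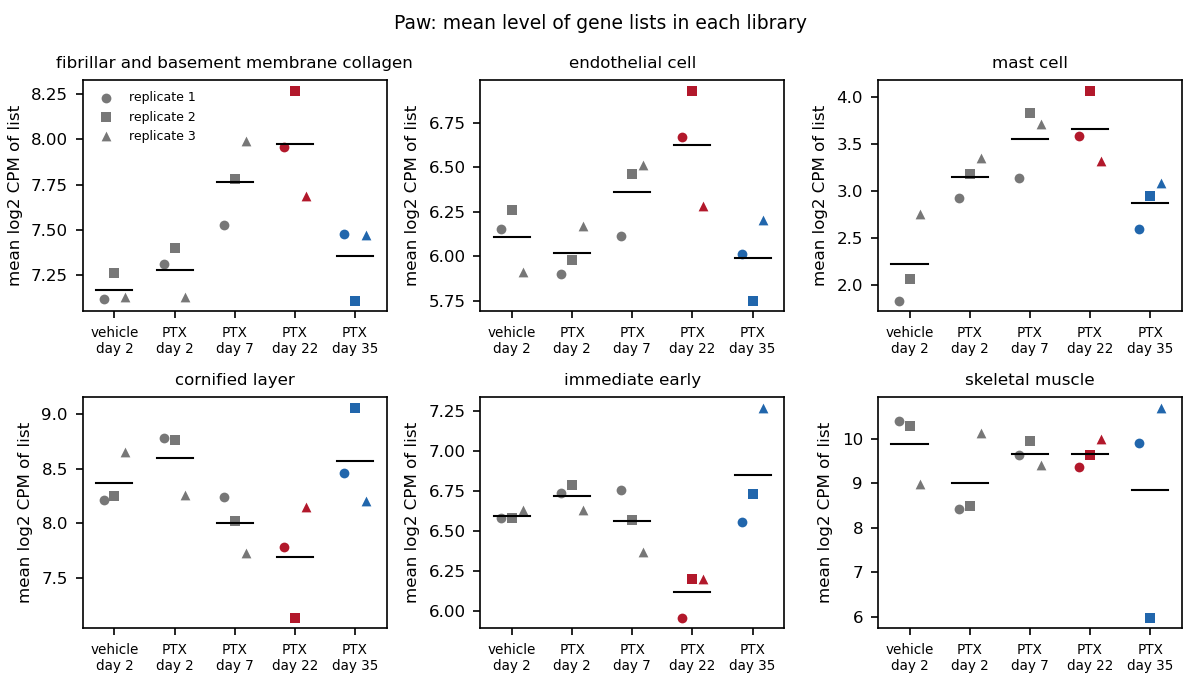
Mean log2 CPM (y axis, one scale per panel) of 6 gene lists in each paw library by group (x axis); marker shape gives the replicate number and black lines the group mean of 3 libraries. Immediate early genes lie lowest at day 22, mast cell genes at day 35 lie between vehicle and day 22 in the group means, and day 35 replicate 2 is at 5.98 for skeletal muscle.

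Fat and lipid genes were lower in part. Of 18 adipocyte markers 10 were lower at an unadjusted p under 0.05 and 0 higher, with a median of -0.67. Without day 35 replicate 1 or without day 35 replicate 2 the count was 5, with a median of -0.44 without the latter, and without day 22 replicate 3 it was 6. Pparg, the transcription factor that drives fat cell differentiation, stood at 17.5, 11.9 and 20.1 CPM at day 22 and at 8.92, 6.68 and 11.5 CPM at day 35, -0.87 ± 0.22 (edgeR adjusted p 0.112). Cidea, a lipid droplet protein that sebaceous glands also make, read 49.8, 43 and 42.4 CPM at day 22 and 21.2, 30.2 and 17 CPM at day 35, -0.99 ± 0.22. Both had groups that did not overlap. Scd1, the stearoyl-CoA desaturase of sebaceous glands and fat, stood at 2620, 2030 and 3010 CPM at day 22, at 1160, 1520 and 1220 CPM at day 35 and at 1590 to 1740 CPM in vehicle, so that day 35 lay below vehicle as well. Its difference between the days was -0.98 ± 0.23 (edgeR adjusted p 0.112). Of 16 sweat and sebaceous gland genes 6 were lower and 1 higher. That one, chosen here after its values were seen, was Aqp5, the water channel of sweat glands, with 163, 96.1 and 181 CPM at day 22 and 296, 325 and 186 CPM at day 35.

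Genes of the outer epidermis stood higher at day 35. Of 21 cornified layer genes 12 (57.1%) had groups without overlap, against 7.24% of all genes higher without overlap. At an unadjusted p under 0.05, 17 were higher and 0 lower, and the median was 0.95. Without day 35 replicate 2 the count was 9 and the median 0.68. Sprr1b, a small proline-rich protein of the cornified envelope, stood at 294, 219 and 380 CPM at day 22, at 601, 812 and 522 CPM at day 35 and at 468, 486 and 559 CPM in vehicle, a log2 fold change of 1.11 ± 0.23 (edgeR adjusted p 0.104). Cdsn, corneodesmosin, which holds cornified cells together, read 917, 502 and 1100 CPM at day 22 and 1730, 2600 and 1330 CPM at day 35, 1.16 ± 0.32. Every day 35 library was above every day 22 library in both genes, a condition of the choice by p in Sprr1b. DESeq2 called 12 of the 21 genes higher, and edgeR without day 22 replicate 3 called 11, against 4.46% and 2.89% of all genes. Here too the library left out was the day 22 one nearest to day 35 (list mean log2 CPM 8.15 against 7.78 and 7.13).

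Of 14 suprabasal and palmoplantar keratin genes 7 were higher, with a median of 0.75, and 4 without day 22 replicate 2 or without day 35 replicate 2. Krt1, the type II keratin of suprabasal cells, stood at 4290, 3640 and 9930 CPM at day 22 and at 17300, 20800 and 12600 CPM at day 35, with vehicle at 10200 to 11400 CPM. Its log2 fold change was 1.51 ± 0.38 (edgeR adjusted p 0.112, and 0.00504 to 0.439 over 14 alternative settings). Day 22 replicate 3 was near vehicle while its 2 companions were well below it. Krt78 followed, with 1.39 ± 0.38, and Krt10, the partner of Krt1, with 0.91 ± 0.33. The 12 basal keratinocyte genes held 0 at an unadjusted p under 0.05 on either side, with fold changes from -0.28 to 0.30 and a median of 0.11, whose sign depended on the scaling. The difference between the basal and the cornified list was not tested. Of 30 cell division genes 4 (13.3%) were higher and 1 (3.33%) had no overlap of groups, against 8.32% and 7.24% of all genes, and the count was 0 without day 22 replicate 3 or without day 35 replicate 2. Top2a, the topoisomerase of dividing cells, read 71.1, 92 and 60.4 CPM at day 22 and 105, 160 and 92.5 CPM at day 35 (0.68 ± 0.24, edgeR adjusted p 0.157), and its difference was 0.42 without day 35 replicate 2.

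**Figure D4:**
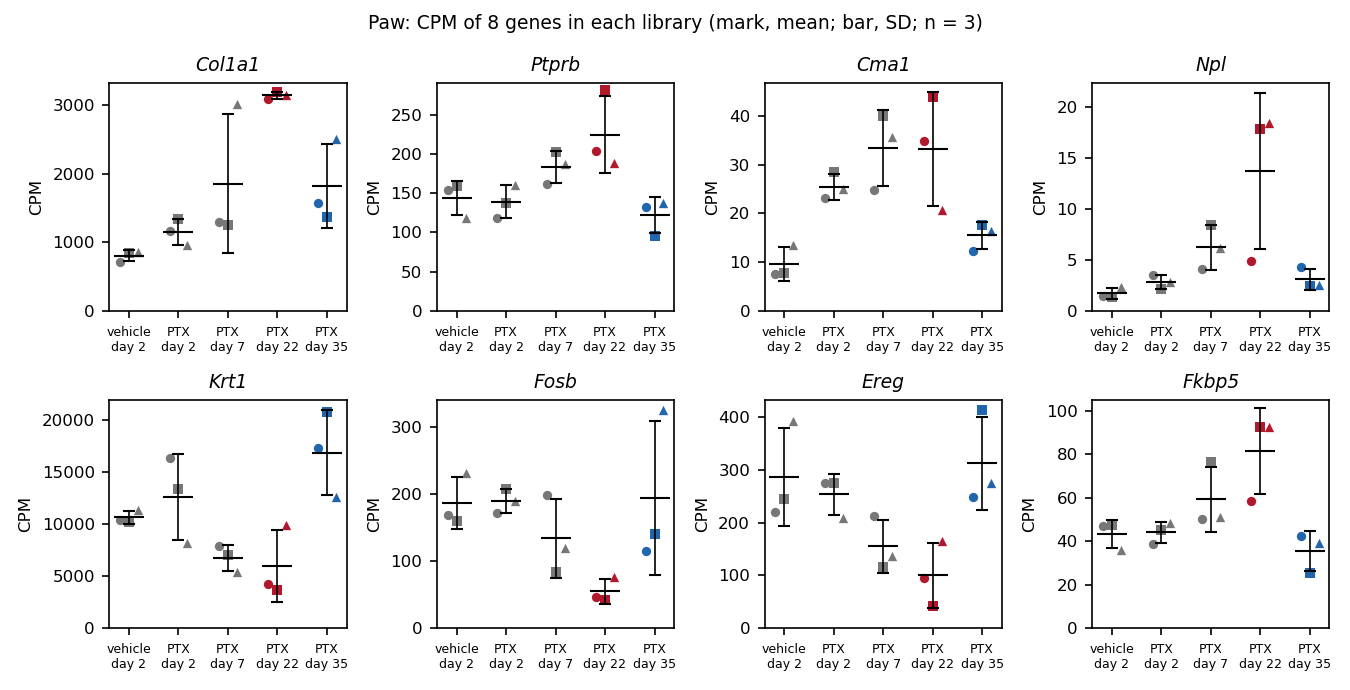
CPM (y axis, from 0) of 8 genes in each paw library by group (x axis); colours mark day 22 (red) and day 35 (blue), horizontal marks the mean and bars the SD of 3 libraries. Col1a1 and Cma1 at day 35 lie between vehicle and day 22 in their group means, while Fosb and Ereg are lowest at day 22 and reach 325 and 413 CPM at day 35.

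Immediate early genes, which cells switch on within minutes of growth factor, stress or calcium signals and whose RNA decays fast, were higher at day 35. Of 21 genes 13 (61.9%) had no overlap of groups, against 7.24% of all genes higher without overlap. At an unadjusted p under 0.05, 16 were higher and 0 lower, and the median was 0.59. Without day 35 replicate 3 the count was 8 and the median 0.47. Fosb, a subunit of the AP-1 transcription factor, stood at 46.7, 41.5 and 76.3 CPM at day 22, at 115, 140 and 325 CPM at day 35 and at 169, 160 and 231 CPM in vehicle, a log2 fold change of 1.82 ± 0.40 (edgeR adjusted p 0.112). Dusp1, a phosphatase that switches off MAP kinases, read 272, 278 and 257 CPM at day 22 and 464, 438 and 426 CPM at day 35, 0.72 ± 0.15 (edgeR adjusted p 0.104). Maff, a small Maf factor, read 22.2, 28.9 and 34.1 CPM at day 22 and 41, 54.5 and 49 CPM at day 35, 0.76 ± 0.15. The groups did not overlap in any of the 3, a condition of the choice by p in Dusp1 and Maff. Vehicle lay above every day 22 library in each. In Arc, an activity-regulated gene chosen here after its values were seen, 1 library set the size, with 3.88, 3.63 and 22.4 CPM at day 35 against 2.41, 2.45 and 3.25 CPM at day 22.

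The list mean of these genes was 5.96, 6.2 and 6.2 log2 CPM at day 22, 6.56, 6.73 and 7.27 at day 35 and 6.58, 6.58 and 6.63 in vehicle. Day 22 was thus the low group, and 2 of the 3 day 35 libraries lay above all vehicle libraries. In DRG the median of the same list between the same days was -0.06. DESeq2 called 11 of the 21 genes higher, and edgeR without day 22 replicate 3 called 4, against 4.46% and 2.89% of all genes.

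Promoter letters of this list are shown because its members stood on one side together. RefSeq promoters (GRCm38.p6, 250 bases before to 50 after the start) were at hand for 16 members. The full cyclic AMP response element, TGACGTCA, which reads the same on both strands, was found in 3 of the 16 (18.8%), against 2.03% of 27025 genes in the table and 3.29% of 11914 genes tested in paw. Stretches before the start are given 5′ to 3′ on the gene's strand, with the element in capitals, for Dusp1 at chr17:26508578-26508645 on the minus strand, Maff at chr15:79347461-79347519 on the plus strand and Btg2, chosen for this match, at chr1:134079284-134079351 on the minus strand.
Dusp1: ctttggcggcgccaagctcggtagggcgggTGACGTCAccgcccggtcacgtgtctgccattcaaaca
Maff: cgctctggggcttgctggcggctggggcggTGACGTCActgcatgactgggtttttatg
Btg2: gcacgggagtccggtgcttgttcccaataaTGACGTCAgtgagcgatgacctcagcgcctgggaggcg
Dusp1 and Maff are among the genes with the smallest p, while Btg2, an antiproliferative gene, differed by 0.59 ± 0.23 with overlapping groups. A match of letters is a description and shows no binding.

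Of 12 genes of the EGF family and its receptors 4 were higher at an unadjusted p under 0.05 and 0 lower, all 4 of them ligands of the EGF receptor. By sign alone 8 of the 12 were higher and 4 lower, from -0.50 to 1.63. Ereg, epiregulin, stood at 94.9, 42.3 and 165 CPM at day 22, at 249, 413 and 275 CPM at day 35 and at 221, 244 and 392 CPM in vehicle, 1.63 ± 0.42 (edgeR adjusted p 0.114). Epgn, epigen, read 4.27, 11.4 and 9.93 CPM at day 22 and 19.8, 14.9 and 15.7 CPM at day 35, and it had passed the test as lower at day 22 against vehicle (-1.45, edgeR adjusted p 0.0478). Btc, betacellulin, differed by 1.14 ± 0.42. Ptgs2, the inducible cyclooxygenase of prostaglandin synthesis, is on no list and was named by its p. It stood at 8.12, 11 and 12.1 CPM at day 22, at 17.8, 23.7 and 31.5 CPM at day 35 and at 24.5 to 42.8 CPM in vehicle. Its difference between the days was 1.22 ± 0.25 (edgeR adjusted p 0.104), and day 22 against vehicle had passed the test at -1.63 (edgeR adjusted p 0.0261). The kinase Sik1, a cyclic AMP target, read 146, 177 and 218 CPM at day 22 and 305, 336 and 344 CPM at day 35, 0.86 ± 0.16, and it too had passed as lower at day 22 against vehicle (edgeR adjusted p 0.0478).

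Cytokines were split. Of 24 interleukin and TNF family genes tested 6 were higher and 7 lower at an unadjusted p under 0.05, where the lower count was 3 without day 22 replicate 2 or without day 35 replicate 2. Il1a, an alarmin that keratinocytes store, stood at 12.2, 9.9 and 15.1 CPM at day 22 and at 23.7, 31.8 and 17.3 CPM at day 35, 0.97 ± 0.27 (edgeR adjusted p 0.121). Tgfb1, the main fibrogenic TGF-beta, read 30.7, 38.9 and 27.6 CPM at day 22 and 19.8, 13.9 and 19.8 CPM at day 35, -0.86 ± 0.22 (edgeR adjusted p 0.112). Neither gene had overlapping groups. Of 24 chemokines 4 were lower and 1 higher, and 0 were lower without day 22 replicate 2. Ccl9, made by macrophages, stood at 42.9, 187 and 40.3 CPM at day 22 and at 30.3, 22.5 and 27.6 CPM at day 35, -1.75 ± 0.58, and Cxcl14, a chemokine of fibroblasts and epithelia, at 112, 273 and 271 CPM and at 62.2, 73.1 and 161 CPM, -1.14 ± 0.39. In Ccl9 the size rested on day 22 replicate 2.

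The clock list held genes on both sides. The molecular clock is a feedback loop in which Arntl and Clock drive the Per, Cry, Nr1d and PAR-bZip genes through E-box letters, so their levels vary over the day. The hour of collection is not given in the sources used here. In paw 7 of 19 clock genes were higher and 1 lower at an unadjusted p under 0.05, with a median of 0.33, and in DRG the median was 0.26. By sign 13 were higher and 6 lower in paw, and the count of 7 came to 4 when day 22 replicate 1 or 2 or day 35 replicate 2 or 3 was left out. Gm129, a clock repressor also known as Ciart, stood at 13.4, 6.36 and 20.5 CPM at day 22 and at 27.5, 33.5 and 31.3 CPM at day 35, 1.20 ± 0.32 (edgeR adjusted p 0.119), and its DRG fold change was 1.36 (edgeR adjusted p 0.0675). Dbp, an output factor of the clock, differed by 0.95 ± 0.25 in paw and by 1.38 in DRG (edgeR adjusted p 0.118 and 0.124). Day 35 lay above day 22 without overlap in paw for both genes. In DRG 1 gene (0.00652%) rose and 5 (0.0326%) fell past the threshold of 15333 tested. Nr1d2, a repressor of the loop, rose there by 0.72 (edgeR adjusted p 0.0203), and Arntl fell by 1.05 on the log2 scale (edgeR adjusted p 0.0139). Nr1d2 was called in none of the 6 fits that left out 1 DRG library of these days, and Arntl was not called without DRG day 22 replicate 1, DRG day 35 replicate 1 or DRG day 35 replicate 3. In paw these genes, chosen for their DRG result, differed by 0.42 ± 0.17 and -0.19 ± 0.10, and the edgeR adjusted p of the paw against DRG difference was 0.0897 for Arntl.

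**Figure D5:**
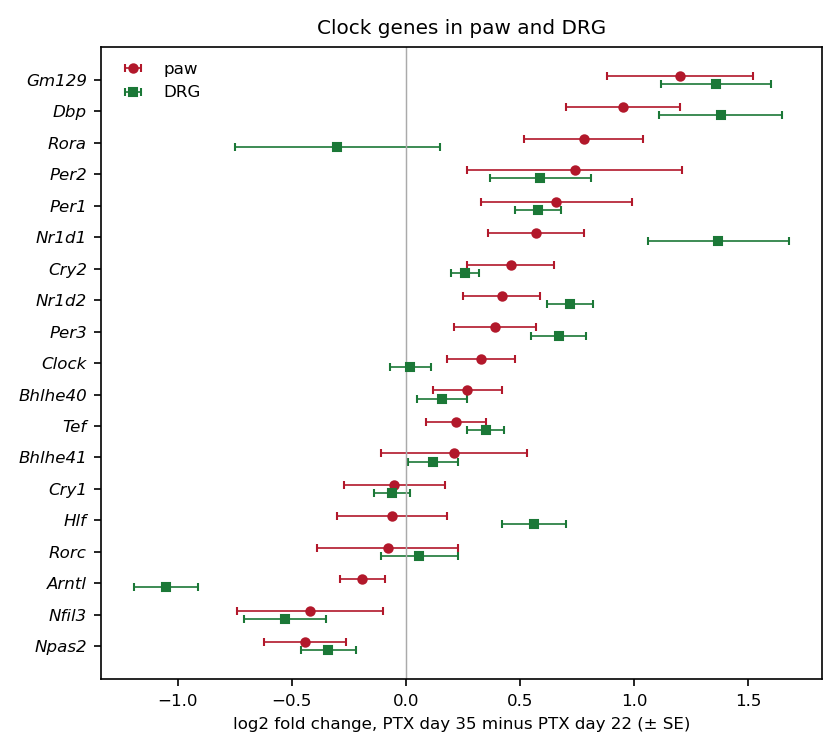
Log2 fold change of PTX day 35 minus PTX day 22 (x axis; bars, SE from edgeR) for 19 clock genes (y axis) in paw (circles) and DRG (squares), 3 libraries per day and tissue. Gm129, Dbp, Per1 and Nr1d2 lie right of 0 in both tissues, and Arntl lies at -1.05 in DRG and -0.19 in paw.

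The plot of clock genes sets both tissues side by side. The palindromic E-box CACGTG stood in the RefSeq promoters of 5 of 16 clock genes (31.2%), against 8.09% of all genes and 11.1% of those tested, and also in 5 of 16 immediate early genes (31.2%). Stretches with the E-box in capitals are shown for Gm129, at chr3:95882237-95882374 on the minus strand, and for Per1, a period gene chosen as a known clock target, at chr11:69098753-69098818 on the plus strand.
Gm129: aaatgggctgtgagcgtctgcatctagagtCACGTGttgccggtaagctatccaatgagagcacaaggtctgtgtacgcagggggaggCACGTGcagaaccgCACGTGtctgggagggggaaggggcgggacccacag
Per1: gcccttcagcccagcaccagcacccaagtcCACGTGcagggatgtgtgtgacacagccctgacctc
Gm129 holds 3 copies in this stretch and Per1 holds 1. Per1 differed by 0.66 ± 0.33 in paw and by 0.58 in DRG (edgeR adjusted p 0.283 and 0.0675). Fkbp5, a chaperone that glucocorticoids induce, went the other way in paw, from 58.6, 92.8 and 92.7 CPM at day 22 to 42.4, 25.3 and 39.2 CPM at day 35, -1.19 ± 0.23 (edgeR adjusted p 0.104), with 0.33 in DRG. Of 15 glucocorticoid response genes 3 were higher and 2 lower, with a median of 0.

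Interferon-stimulated genes, the antiviral set that type I interferon induces, had medians below 0 in both tissues. In paw 8 of 26 were lower at an unadjusted p under 0.05 and 0 higher, with a median of -0.53, and the DRG median was -0.63. The list means of the libraries overlapped between the days in both tissues. In DRG they ran from 3.3 to 4.62 log2 CPM at day 22 and from 3.25 to 3.69 at day 35. In paw they ran from 2.13 to 2.78 and from 1.68 to 2.14. The paw count was 2 without day 22 replicate 2 or without day 35 replicate 2 and 3 without day 35 replicate 1, with a median of -0.33 without day 22 replicate 2. Ifi27l2a stood at 30.2, 45.7 and 39.5 CPM at day 22, at 14.2, 12 and 15.5 CPM at day 35 and at 8.32 to 18.9 CPM in vehicle, -1.47 ± 0.28 (edgeR adjusted p 0.104), and the DRG fold change was -1 (edgeR adjusted p 0.291). Rtp4, a chaperone of receptors, read 4.87, 6.77 and 5.06 CPM at day 22 and 2.88, 1.53 and 3.69 CPM at day 35, -1.04 ± 0.32. The groups were apart in both genes, a condition of the choice by p in Ifi27l2a.

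Of 19 neurotrophin and nerve growth genes 4 were lower and 1 higher at an unadjusted p under 0.05, with 17 on the lower side, a median of -0.19, and 3 (15.8%) lower without overlap against 11.6% of all genes. Without day 22 replicate 2 or without day 35 replicate 2, 2 were lower. Nrp2, a semaphorin and VEGF receptor, read 82.5, 101 and 84.5 CPM at day 22, 57.6, 52.5 and 62 CPM at day 35 and 47 to 60 CPM in vehicle, -0.64 ± 0.13 (edgeR adjusted p 0.104). Bdnf, a neurotrophin and the gene higher at that p, read 7.05, 3.5 and 6.64 CPM at day 22 and 12.1, 10.5 and 8 CPM at day 35, 0.83 ± 0.26 (edgeR adjusted p 0.134). Of 14 Schwann cell and nerve genes 7 were lower and 1 higher, 2 (14.3%) being lower without overlap, and 2 were lower at an unadjusted p under 0.05 without day 35 replicate 2 and 4 without day 22 replicate 2. Scn7a, a sodium channel of glia, differed by -0.54 ± 0.16, with all day 35 libraries (39.1 to 48.8 CPM) below vehicle (52.4 to 57.4 CPM) as well as below day 22 (55.5 to 77.5 CPM). Gfap, the Schwann list's gene higher at that p, was low in all libraries, at 0.0477 to 0.318 CPM at day 22 and 0.51 to 1.82 CPM at day 35.

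Of 23 ribosomal protein genes 3 (13%) were lower and 1 (4.35%) higher at an unadjusted p under 0.05, near the 11.9% and 8.32% of all genes, with a median of -0.07. The lower count was 1 without day 22 replicate 1 and 0 without day 35 replicate 3. The 3 with the smallest p, all with near-identical copies elsewhere in the genome, are given here with their DRG values. Rpl39 read 149, 133 and 108 CPM at day 22 and 73.5, 82.8 and 61.2 CPM at day 35 in paw, -0.84 ± 0.32 (edgeR adjusted p 0.176), and it fell in DRG by 0.84 on the log2 scale (edgeR adjusted p 0.0203). Rpl23 differed by -0.56 ± 0.21 in paw and fell in DRG by 0.62 (edgeR adjusted p 0.00611). Without DRG day 35 replicate 1 no gene was called in DRG, and Rpl39 was called in 1 of the 6 fits with 1 DRG library left out, Rpl23 in 5. Rps4x stood on the opposite side in both, by 0.74 ± 0.29 and 0.52. Reads with several alignments were counted to no gene, so their values are uncertain, and in both tissues the day 35 tables are those with the other style of summary lines, which cannot be told apart from the day.

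The levels in vehicle place both days. Against vehicle, edgeR called 159 genes higher (1.05%) and 11 lower (0.0724%) at day 22 and 0 genes (0%) at day 35, where 807 had an unadjusted p under 0.05 against 760 by chance. DESeq2 called 1298 genes at day 22 and 23 at day 35. The edgeR count at day 22 was 0 without vehicle replicate 1, vehicle replicate 2 or day 22 replicate 2, 20 without vehicle replicate 3, 1255 without day 22 replicate 3 and 0 with these groups alone. Vehicle replicate 2 also stood apart in 44.1 reads outside genes and 157 multiply aligned reads per 100 gene reads, against 21.1 and 23.7, and 117 and 113, in the other vehicle libraries. In list means of log2 CPM it was vehicle replicate 3 that stood apart. Its muscle list read 8.98 against 10.39 and 10.27 in the other vehicle libraries. Its mast cell list read 2.76 against 1.84 and 2.07, and its macrophage list 4.64 against 4.28 and 3.97. The comparisons with vehicle share their vehicle libraries with each other and their PTX libraries with the comparison of the days. They are thus set side by side and do not support each other. List medians at day 22 and at day 35 against vehicle were 0.92 and 0.16 for collagens, 0.55 and -0.11 for endothelial genes, 1.65 and 0.67 for mast cell genes, 1.36 and 0.60 for macrophage genes, -0.69 and 0.20 for the cornified layer, -0.36 and 0.27 for immediate early genes and -0.31 and 0.00 for clock genes. A count of 0 at day 35 does not show that the skin was at the vehicle level. Col1a1, named for its earlier call at day 22 against vehicle, was above the highest vehicle library in all 3 day 35 libraries. All vehicle libraries were of day 2 by their titles.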

How the data were processed

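Libraries were made from about 500 ng of RNA with a stranded polyA kit and sequenced as 50 bp single reads, per the labels' protocols. Per the submitters' processing notes, TopHat2 aligned the reads to mm9 and HTSeq counted them, with no versions given. The authors deposited raw counts per gene, 1 table per library with 22609 symbols. HTSeq summary lines were left out of library sizes. In R 4.3.3 with edgeR 4.0.16, the 15 paw libraries were fitted together, each group with its own coefficient (filterByExpr with smallest count 10 and smallest total 15, TMM, robust quasi-likelihood F test, BH threshold 0.05). The 15 DRG libraries were fitted likewise, and both tissues together for their difference. CPM are TMM-scaled, with a prior count of 2 on the log2 scale. DESeq2 1.42.0 and other settings were alternatives. The fits were run on simulated data in which each gene was drawn on its own. Shifts of whole gene lists in single libraries, as seen here, were not simulated, so that run does not show how the fits behave under them. Errors are SE of log2 fold changes, and the depth of 18576843 to 21056591 reads in the 6 libraries limits what low genes can show.

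The named genes were up to 10 per direction and up to 3 per list, by smallest p, and 11 genes called at day 22 earlier. Picks per direction had to average 1 or more in log2 CPM, without overlap between the groups. Gene models and pseudogenes were passed over there. These picks are thus a filtered selection, and their lack of overlap is no separate evidence. A few genes that the rule picks are not reported here. No gene was called, so all named genes of the comparison were filled up by p. Of 767 list genes 763 matched a symbol, 11 through a synonym. The libraries, lists, named-gene rule and tests were chosen with earlier results of these data known, and members of a list are not independent of each other. Acta1, Arc, Aqp5, Btg2, Per1, Nr1d2 and Arntl lie outside the rule and were named after their values were seen, and Krt14 and Scn10a served as tissue markers. No reference of the mm9 build was used, and promoters come from the RefSeq table of GRCm38.p6.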

Additional observations from a re-analysis of the deposited data

Results flagged for a closer look

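Tubulin and microtubule genes were singled out because the libraries of the 2 tissues lay apart in opposite directions. In paw the mean log2 CPM of 22 genes was 0.15 higher at day 35 than at day 22 (5.70 to 5.75 at day 22, 5.75 to 5.99 at day 35). In DRG the mean of 23 genes differed by -0.07 (7.04 to 7.08 at day 22, 6.95 to 7.02 at day 35). The libraries did not overlap before rounding in either tissue, and the difference between the tissues was not tested. Tubb2b, a beta-tubulin, stood at 7.93, 8.54 and 9.79 CPM at day 22 and at 15, 16 and 10.7 CPM at day 35 in paw, 0.67 ± 0.22 (edgeR adjusted p 0.142), and Tuba4a differed by 0.55 ± 0.17. The paw median of the list, 0.07, turned to -0.04 with total reads in place of TMM.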

How the results depend on the processing

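Between day 35 and day 22 in paw, edgeR gave 0 calls with all libraries and also without a filter on low counts, with RLE scaling, with the 2 groups alone, with the replicate block, with the muscle list as a covariate and without vehicle replicate 2. DESeq2 gave 1225 calls and total reads without TMM, chosen after seeing the data, gave 2 (Vav2 and Gm6251). Leaving out 1 library gave 0 to 1086. In DRG the 6 calls became 55 with DESeq2 and 12 with the groups compared alone, and 0 to 5 with 1 library left out. The paw minus DRG difference, with 0 calls, gave 176 with DESeq2, 2 with the replicate block (Fmo2 and Lfng) and 0 to 373 with 1 library left out. Day 22 against vehicle, with 170 calls, gave 51 with RLE, 1298 with DESeq2, 0 with the groups compared alone, 75 with the replicate block, 970 with the muscle covariate and 0 to 1255 with 1 library left out. Day 35 against vehicle gave 23 with DESeq2, 1 with the groups alone (Fgfbp3) and 1 with the muscle covariate (Gm11428). Deviations of same-numbered paw libraries of day 22 and day 35 correlated at -0.04, -0.09 and 0.17, and those of other pairs at -0.33 to 0.27. So few pairs cannot show whether the replicate numbers pair libraries. Pairing of paw with DRG was not checked, and the main test of their difference treated all libraries as independent.

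Of 146 named genes 7 values changed sign: without day 22 replicate 3, Mmp9, Blk and Ppbp, without day 35 replicate 1, Blk (0.03), and without day 35 replicate 3, Pvalb, Tnni2 and Actn3. With 1 library left out, Mmp9 ranged from -5.29 to 1.59, Blk from -1.63 to 1.27, Ppbp from -2.13 to 1.23, Pvalb from -0.35 to 1.20, Tnni2 from -0.30 to 0.98 and Actn3 from -0.63 to 0.86. None of these passed the test in any direction with all libraries. The other 1872 values kept side and threshold and 164 passed the threshold under an alternative. The median of all genes moved by -0.12 without TMM. Medians of the basal keratinocyte, glucocorticoid response, heat shock, p53 target, skeletal muscle and tubulin lists changed sign with the scaling. The cause of these shifts was not tested.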

Other observations

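Further gene groups were counted at an unadjusted p under 0.05 between day 35 and day 22 in paw. Of 25 mitochondrial respiration genes 0 had an unadjusted p under 0.05, and their median was -0.06. Of 16 p53 targets, which DNA damage induces, 2 (12.5%) were higher, against 8.32% of all genes. Cdkn1a, the cell cycle inhibitor p21, stood at 261, 207 and 310 CPM at day 22 and at 361, 439 and 320 CPM at day 35 (0.53 ± 0.19, edgeR adjusted p 0.157). Of 16 heat shock genes 3 (18.8%) were higher, against 8.32% of all genes, and 0 lower, with a median of 0.05. Without overlap 3 (18.8%) were higher, against 7.24% of all genes. Of 14 NRF2 antioxidant genes 1 (7.14%) was higher and 2 (14.3%) lower, against 8.32% and 11.9% of all genes. Gsta3, a glutathione transferase, stood at 30.7, 28.1 and 20.5 CPM at day 22 and at 12.2, 14.3 and 12 CPM at day 35 (-1.04 ± 0.19, edgeR adjusted p 0.104).

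Of 19 cholesterol synthesis genes 4 were higher and 1 lower at day 35, with 2 higher without day 22 replicate 1, day 22 replicate 2 or day 35 replicate 2. Dhcr7, which makes cholesterol from its last precursor, read 170, 106 and 163 CPM at day 22 and 212, 323 and 198 CPM at day 35 (0.74 ± 0.22, edgeR adjusted p 0.128). Of 28 TGF-beta, BMP and WNT genes 8 were lower and 3 higher, with 4 lower without day 22 replicate 2 and 5 without day 22 replicate 1. Sfrp4, a secreted WNT inhibitor, read 37.2, 60.6 and 41.6 CPM at day 22, 20.8, 30.1 and 25 CPM at day 35 and 14.2 to 16.2 CPM in vehicle (-0.88 ± 0.20, edgeR adjusted p 0.112). Of 7 pigment cell genes 3 were lower, among them Kit, which is also on the mast cell list. Of 23 hair follicle genes 19 lay on the lower side, with a median of -0.86, while 1 was higher and 0 lower at an unadjusted p under 0.05. That median was -0.46 without day 22 replicate 1 and -0.39 without day 22 replicate 2.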
